A study of Mus musculus with 24 samples.

Results

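Line B16-D-739, a dormant melanoma line, was compared with B16-D, the dormant line that carries no line number. The arrays were chosen by their titles, 3 titled B16-D-739 and 4 titled B16-D (1 of them as 16D), so that 7 of the 24 arrays of the series enter. All cells derive from B16-F1 melanoma of the mouse and carry green fluorescent protein. B16-M is the parental line and stands for B16-F1GFP-M of the study, and B16-D stands for B16-F1GFP-D, which was recovered from a mouse after long dormancy. In that model, syngeneic mice received a vaccine of irradiated B16 cells that overexpress GM-CSF. The recovered cells were expanded in culture and stored frozen, so RNA came from cultured cells without a host. B16-D-733, B16-D-735 and B16-D-739 are read as the second generation, which the study took from a brain site, because there are 3 such lines in both. The labels do not say which number belongs to which line of the study. Each line is 1 isolate, and nothing in the labels says that arrays of a line came from separate cultures, so p-values measure the spread between these arrays, which may be technical.

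Dormant tumour cells persist for long periods without forming a growing mass and can later give rise to relapse. Melanoma cells keep the programme of the pigment cell, in which the factors Mitf and Sox10 maintain the enzymes and structural proteins of the melanosome. A line passed through a host a second time can keep the expression state of the line it came from, or drift from it through selection of cells and through changes of regulation. Immune recognition of such cells runs through MHC class I molecules, which carry peptides to the cell surface, and through cytokines and matrix proteins that the cells release.

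Agilent arrays of 1 colour measured RNA as the brightness of each spot. Levels are given as log2 signal relative to the 75th percentile of the array, so that 0 is the level at that percentile and a difference of 1 is a doubling of signal. Levels of different probes cannot be set against each other. On the B16-D-739 arrays 50.9% to 53.4% of the spots were well above background, and on B16-D replicates 0, 1 and 3 46.0% to 55.2%. B16-D replicate 2 stood apart with 90.3% of its spots above background and a median signal of 155.4 against 21.1 to 31.6 on the other B16-D arrays. Results are therefore given without this array first, for 3 against 3 arrays, and then with it.

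B16-D-739 differed from B16-D in 79 of 24316 genes, 0.325% of those tested, with 60 higher (0.247%) and 19 lower (0.0781%) (limma, adjusted p under 0.05). The excess of higher calls depended on the fit. Scaled to the median of each array instead, 27 were higher and 14 lower. With the date mark of the titles as a term, 53 were higher and 49 lower, and with a replicate block and B16-D replicate 2 included, 29 were higher and 29 lower. The arrays of both lines did not overlap for any of the 79 genes, while over all genes 1846 (7.59%) did not overlap. Of the 79, 59 had a gene name other than that of a clone or predicted gene, 46 higher and 13 lower. The fitted difference exceeded 1 log2 unit in 66. Of the 79, 55 were above background in both lines. In B16-D alone, 16 were above background on no array, in B16-D-739 alone 7, and 1 was so in both. For these genes p rests in part on signals below background. Of all genes, 1236 had an unadjusted p under 0.05, 5.08% of those tested. The spread behind these calls was shared with the other melanoma arrays, and in a fit of the 6 arrays of both lines alone, none of the 30 named genes below passed and 1 transcript did, XR_388001, which has no gene symbol. XR_388001 was above background on no B16-D array and at least 11.9-fold higher in B16-D-739 in the shared fit. Its level was -1.15 in B16-D-739, -1.15 in B16-D-733 and -0.76 in B16-D-735, so the sister lines held the signal as well.

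At the other end, 15423 genes (63.4%) had a 95% interval of the difference that lay wholly within 1 log2 unit of 0, so a change of 1 log2 unit lay outside the interval. For 8173 genes the interval held 0 and also reached beyond 1 log2 unit, and these genes can be called neither changed nor stable. The bounded share followed the level of the gene. It was 91.8% in the brightest of 3 equal groups of genes, 68.8% in the middle group and 29.7% in the dimmest group.

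**Figure D1:**
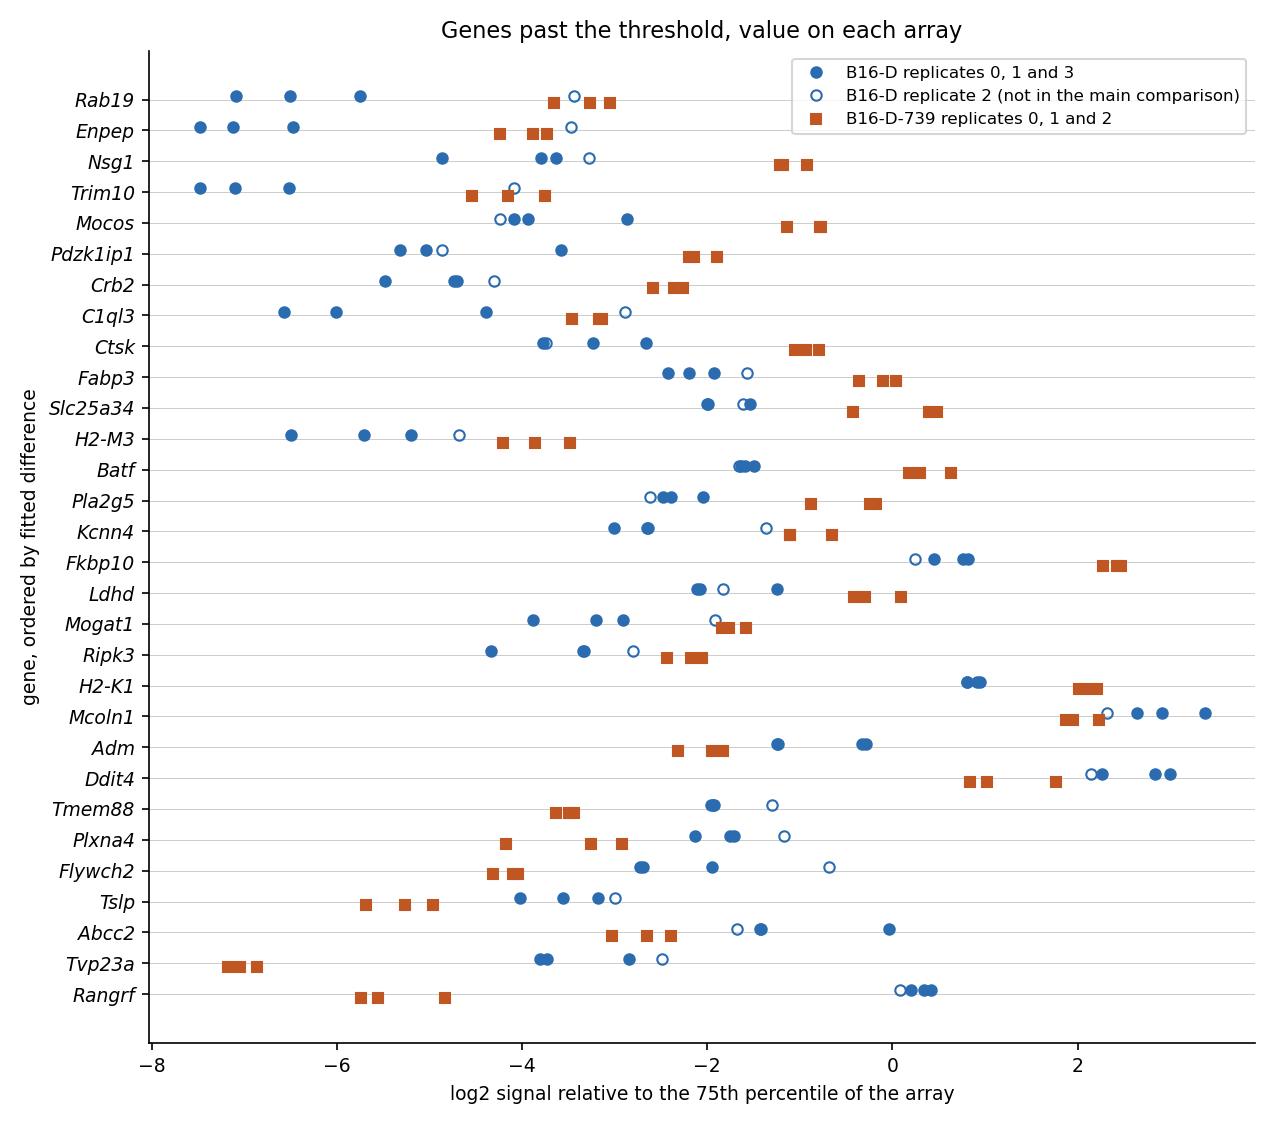
Value of 30 named genes past the threshold on each array of B16-D (circles) and B16-D-739 (squares), as log2 signal relative to the 75th percentile of the array. Filled symbols of the lines do not overlap for any gene, and the open circle of B16-D replicate 2 lies within or beyond the range of the B16-D-739 arrays for Rab19, Enpep, Trim10 and C1ql3.

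The largest difference of a named gene was the loss of Rangrf signal. Rangrf encodes a small protein that binds the nuclear transport GTPase Ran and releases its nucleotide. Its level was 0.20, 0.42 and 0.34 on the B16-D arrays and -5.56, -5.74 and -4.84 on the B16-D-739 arrays. All B16-D arrays were near the 75th percentile, and no B16-D-739 array was well above background. Rangrf was thus at least 37.0-fold lower in B16-D-739 (measured log2 difference -5.70 ± 0.20 (SE), adjusted p = 1.63e-08). The other probes of the gene that were above background differed by -4.23 and -3.86 log2 units, in the same direction. The level was -0.13 in B16-M, -0.12 in B16-D-733 and 0.41 in B16-D-735, so every other melanoma line held the signal. Its nearest tested neighbours on either side, Slc25a35 and Pfas, had differences of -0.32 and -0.01 and did not pass. Over the 25 genes with the largest changes, 100 neighbouring genes in chromosomal order (2 on each side) were tested, and 1 of them passed the threshold, Gm10768 beside Abcc2.

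RefSeq promoters (GRCm38.p6, windows of 300 bases that span the start of the gene) are shown for Rangrf as the gene that lost its signal, for Batf as the named gene that rose with the smallest p, and for Ctsk as a gene that rose in B16-D-739 beyond both sister lines. Capitals mark the GC box, GGGCGG on either strand, which stands in 35.7% of 32851 promoters of this length. The search also covered the AP-1 motif TGANTCA (7.81% of promoters), the E-box CACGTG (7.15%), TATAAA (13.6%) and the interferon-stimulated response element (3.44%) on either strand, and found none of them in these windows.
Rangrf, chr11:68973806-68974105, minus strand: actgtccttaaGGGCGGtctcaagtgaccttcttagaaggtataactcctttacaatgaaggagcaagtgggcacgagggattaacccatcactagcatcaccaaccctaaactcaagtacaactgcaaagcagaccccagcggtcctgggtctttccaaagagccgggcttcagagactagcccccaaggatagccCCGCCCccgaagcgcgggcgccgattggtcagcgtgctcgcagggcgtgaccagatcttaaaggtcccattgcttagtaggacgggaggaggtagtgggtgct
Batf, chr12:85686470-85686769, plus strand: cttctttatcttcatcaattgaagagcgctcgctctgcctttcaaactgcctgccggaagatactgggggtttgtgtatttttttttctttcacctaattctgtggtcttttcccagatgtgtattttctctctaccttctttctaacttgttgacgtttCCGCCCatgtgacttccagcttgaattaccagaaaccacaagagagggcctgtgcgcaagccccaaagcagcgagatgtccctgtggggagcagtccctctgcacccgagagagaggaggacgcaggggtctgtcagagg
Ctsk, chr3:95498960-95499259, plus strand: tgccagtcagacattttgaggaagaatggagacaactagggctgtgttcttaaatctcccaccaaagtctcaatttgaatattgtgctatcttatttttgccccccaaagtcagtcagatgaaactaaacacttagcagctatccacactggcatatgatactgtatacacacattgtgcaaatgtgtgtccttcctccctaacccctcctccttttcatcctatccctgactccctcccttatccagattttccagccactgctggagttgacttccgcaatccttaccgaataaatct
The Rangrf window holds 14 CpG dinucleotides, the Batf window 9 and the Ctsk window 2. Among promoters of the genes that passed, GC boxes stood in 24 of 48 windows of higher genes and in 13 of 19 windows of lower genes, beside 58.0% of the promoters of all tested genes. The AP-1 motif stood in 3 of the 48 and 1 of the 19, beside 5.36%. These matches describe letters in the windows and not bound sites.

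Tvp23a, whose yeast relative is a membrane protein of the Golgi, also fell below background in B16-D-739. Its level was -2.85, -3.81 and -3.73 on the B16-D arrays and -7.05, -7.18 and -6.87 on the B16-D-739 arrays. The groups were well separated, and the gene was at least 2.69-fold lower (log2 difference -3.57 ± 0.27 (SE), adjusted p = 4.47e-05). Among the other melanoma lines, B16-D had the lowest mean, with -1.79 in B16-M, -1.96 in B16-D-733 and -1.41 in B16-D-735. Tmem88, which inhibits Wnt signalling at Dishevelled, was 2.99-fold lower. Its level was -1.94, -1.96 and -1.93 on the B16-D arrays and -3.49, -3.45 and -3.63 on the B16-D-739 arrays (log2 difference -1.58 ± 0.17 (SE), adjusted p = 7.89e-04). Flywch2, a gene of little known function, was 3.24-fold lower (adjusted p = 0.00149), and Plxna4, a receptor for semaphorins, was 3.00-fold lower (adjusted p = 0.0323). In a fit of B16-D-739 against B16-D-733 on the same arrays, Rangrf, Tvp23a, Tmem88, Flywch2 and Plxna4 were lower as well. Against B16-D-735, Rangrf, Tvp23a, Flywch2 and Plxna4 were lower too, but Tmem88 was not. Its mean level was -3.77 in B16-D-735 and -3.52 in B16-D-739 (limma, adjusted p = 0.57), so the low level was shared with that line.

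H2-K1 was higher and Tslp lower in B16-D-739. H2-K1 encodes the heavy chain of a classical MHC class I molecule. Its level was 0.81, 0.92 and 0.94 on the B16-D arrays and 2.21, 2.10 and 2.01 on the B16-D-739 arrays. The rise was 2.32-fold (log2 difference 1.22 ± 0.17 (SE), adjusted p = 0.00636). A second H2-K1 probe differed by 0.28 log2 units, and class I genes are similar in sequence, and which of them each probe reads was not tested. H2-M3, a class I molecule that presents formylated peptides, was above background on no array of B16-D and on all 3 of B16-D-739, at least 1.84-fold higher (adjusted p = 0.0315). B2m, the light chain of class I, had a difference of -0.03 with an interval from -0.36 to 0.31. Of the 39 tested genes of the interferon response and antigen presentation, H2-K1 alone passed, beside 0.325% of all genes. The median difference of that list was -0.09 beside 0.01 over all genes. Tslp, a cytokine that acts on dendritic cells, was above background on every B16-D array and on no B16-D-739 array, at least 2.44-fold lower (adjusted p = 0.0089). None of the 13 tested checkpoint and immune-inhibitory ligands passed, beside 0.325% of all genes, and 8 of them had a bounded interval.

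Batf, a transcription factor of the AP-1 family best known from lymphocytes, was the named gene that rose with the smallest p. Its level was -1.60, -1.50 and -1.63 on the B16-D arrays and 0.18, 0.29 and 0.63 on the B16-D-739 arrays. The B16-D values lay close together, and the rise was 3.85-fold (log2 difference 1.94 ± 0.14 (SE), adjusted p = 4.47e-05). B16-D-733 and B16-D-735 had mean levels of 0.37 and 0.22, near that of B16-D-739. Of 38 tested AP-1 and immediate early genes, Batf alone passed, beside 0.325% of all genes. Fos had the lowest difference of the list at -0.77 without passing. Ripk3, the kinase that starts necroptosis, was 2.72-fold higher. Its level was -4.33, -3.33 and -3.34 on the B16-D arrays and -2.18, -2.44 and -2.06 on the B16-D-739 arrays (adjusted p = 0.0113). Of 35 tested genes of apoptosis and cell death, no other passed, beside 0.325% of all genes. Kcnn4, a potassium channel opened by calcium, was 3.51-fold higher (adjusted p = 0.0045). Its mean level was -0.95 in B16-D-739, -0.31 in B16-D-733 and -0.61 in B16-D-735.

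Ctsk and Fkbp10 were higher and Mcoln1 lower in B16-D-739. Ctsk encodes cathepsin K, a protease that cleaves collagen. Its level was -2.67, -3.24 and -3.78 on the B16-D arrays and -0.79, -1.05 and -0.93 on the B16-D-739 arrays. The lines did not overlap, and the rise was 4.93-fold (log2 difference 2.30 ± 0.25 (SE), adjusted p = 7.12e-04). With -4.09 in B16-D-733 and -2.51 in B16-D-735, both sister lines lay below B16-D-739 (log2 difference 3.16 and 1.58, adjusted p = 1.77e-05 and 0.00169). Mcoln1, a calcium channel of the lysosome, was 1.94-fold lower (adjusted p = 0.0466). Of the 49 tested lysosome and endosome genes no other passed, beside 0.325% of all genes, and 44 had a bounded interval. Of 50 tested genes of extracellular matrix and basement membrane, 1 passed, beside 0.325% of all genes. It was Fkbp10, a folding factor for collagen in the endoplasmic reticulum. Its level was 0.82, 0.76 and 0.45 on the B16-D arrays and 2.47, 2.27 and 2.43 on the B16-D-739 arrays. It was 3.27-fold higher (log2 difference 1.71 ± 0.24 (SE), adjusted p = 0.00572). B16-D-733 had a mean level of 2.36, near the 2.39 of B16-D-739, and B16-D-735 one of -1.75. The highest difference of that list belonged to Hapln1, which links hyaluronan to proteoglycans, at 2.02 ± 0.54 (SE), and did not pass (adjusted p = 0.264).

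Enzymes and carriers of metabolism made up a further part of the named genes. Mocos, the enzyme that sulfurates the molybdenum cofactor, was 6.67-fold higher. Its level was -2.87, -3.94 and -4.08 on the B16-D arrays and -0.78, -1.14 and -0.77 on the B16-D-739 arrays (log2 difference 2.74 ± 0.28 (SE), adjusted p = 4.98e-04). It also lay above both sister lines, which had -2.70 and -2.41. Fabp3, a carrier of fatty acids, was 4.11-fold higher, Mogat1, an acyltransferase of monoacylglycerol, 3.02-fold, and Pla2g5, a secreted phospholipase, 3.66-fold (adjusted p = 0.023, 0.0492 and 2.44e-04). The mean level of Fabp3 was -0.14 in B16-D-739, 0.05 in B16-D-733 and -0.43 in B16-D-735. Ldhd, which oxidises D-lactate, was 3.04-fold higher (adjusted p = 0.0105). Slc25a34, a mitochondrial carrier, was 3.99-fold higher by its brightest probe (adjusted p = 9.94e-04), while a second probe differed by 0.02 log2 units. Abcc2, an export pump of conjugated compounds, was 3.31-fold lower (adjusted p = 0.0409), and its highest value came from B16-D replicate 0. None of the 38 tested genes of cholesterol and fatty acid synthesis passed, beside 0.325% of all genes, and 37 had a bounded interval. None of 71 genes of the mitochondrial respiratory chain passed either, and all 71 intervals were bounded. At that share few calls fall to lists of this size, so stability is read from the intervals alone.

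In the list of glycolysis, glycogen and hypoxia response, 2 of 48 tested genes fell, beside 0.0781% of all genes, and none rose, with a median of -0.15. With B16-D replicate 2 included, Epas1, a transcription factor of the hypoxia response, passed as well (log2 difference 1.09, adjusted p = 0.0408, beside 0.0634 without that array). Ddit4, an inhibitor of mTORC1 that stress induces, had a level of 3.00, 2.83 and 2.26 on the B16-D arrays and 1.76, 0.84 and 1.02 on the B16-D-739 arrays. It was 2.81-fold lower (log2 difference -1.49 ± 0.25 (SE), adjusted p = 0.0204). Adm, the precursor of the vasodilator adrenomedullin, had a level of -0.29, -0.33 and -1.25 on the B16-D arrays and -1.95, -2.31 and -1.83 on the B16-D-739 arrays. It was 2.66-fold lower (log2 difference -1.41 ± 0.23 (SE), adjusted p = 0.0172). Pgk1, Aldoa, Gapdh and Ldha, 4 members of the list with bright probes, had differences of 0.01, -0.06, 0.07 and 0.08, and none passed. Of the 37 tested genes of the ATF4 stress response and serine metabolism, Ddit4 alone passed, beside 0.325% of all genes.

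The other named genes that were higher are given one by one and form no list. Crb2, a protein of the Crumbs polarity complex, had a level of -4.73, -5.48 and -4.70 on the B16-D arrays and -2.26, -2.59 and -2.36 on the B16-D-739 arrays. It was 5.93-fold higher (log2 difference 2.57 ± 0.19 (SE), adjusted p = 4.47e-05), although only 1 of the 3 B16-D arrays was above background. B16-D-733 and B16-D-735 were higher still, with -1.13 and -1.70. Nsg1, an endosomal protein of neurons, had a level of -4.87, -3.79 and -3.63 on the B16-D arrays and -1.21, -1.19 and -0.92 on the B16-D-739 arrays. It was 7.94-fold higher (log2 difference 2.99 ± 0.27 (SE), adjusted p = 2.07e-04), with 2 of the 3 B16-D arrays above background, while in B16-D-735 it was above background on no array. Pdzk1ip1, a small membrane protein that binds PDZ domains, was above background on 1 of the 3 B16-D arrays and 5.94-fold higher (adjusted p = 0.0277). Rab19, a small GTPase, Enpep, an aminopeptidase that cleaves angiotensin, Trim10, a protein of the tripartite motif family, and C1ql3, a secreted protein of the C1q family, were above background on all 3 B16-D-739 arrays and on none of the 3 B16-D arrays. The smallest rise these values allow was 2.65-fold for Rab19 (adjusted p = 1.22e-04) and 2.77-fold for C1ql3 (adjusted p = 0.0154). For Enpep it was 1.72-fold, and for Trim10 1.49-fold (adjusted p = 2.34e-04 and 7.12e-04). The p-values of Rab19, C1ql3, Enpep and Trim10 rest in part on B16-D signals below background. The mean level of Enpep was -3.95 in B16-D-739, -3.77 in B16-D-733 and -3.23 in B16-D-735.

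With B16-D replicate 2 included, 56 of 25045 tested genes passed (0.224%), 33 higher (0.132%) and 23 lower (0.0918%). The arrays did not overlap for 4.5% of the genes, and 59.6% had a bounded interval. Of the 79 genes, 44 passed again, all in the same direction. Of the 30 named genes, 20 passed again, among them Rangrf, Tvp23a, Batf, Crb2, Nsg1, Mocos, Ctsk, Fkbp10, H2-K1, Tmem88, Tslp, Ddit4 and Adm, and all 30 kept their direction. The 10 that did not pass were Rab19, Enpep, Trim10, C1ql3, H2-M3, Kcnn4, Mogat1, Ripk3, Abcc2 and Mcoln1. Of these, 8 had risen without replicate 2, and in all 8 the value of replicate 2 was above those of the other B16-D arrays. Rab19 stood at -3.44 on replicate 2, within the range of the B16-D-739 arrays, and Enpep at -3.48, above all of them. The share of spots above background was also highest on that array, and its part in these values was not tested. Leaving out a single other array ended the call of Pdzk1ip1, C1ql3, Fabp3, H2-M3, Abcc2, Ldhd, Mogat1, Plxna4, Adm, Ddit4, Ripk3 or Mcoln1, depending on the array, and the remaining named genes passed without any 1 of the 16. Of these 16 fits Mcoln1 passed in 2, Mogat1 in 3 and Abcc2 in 4, so for these genes most arrays left out ended the call.

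**Figure D2:**
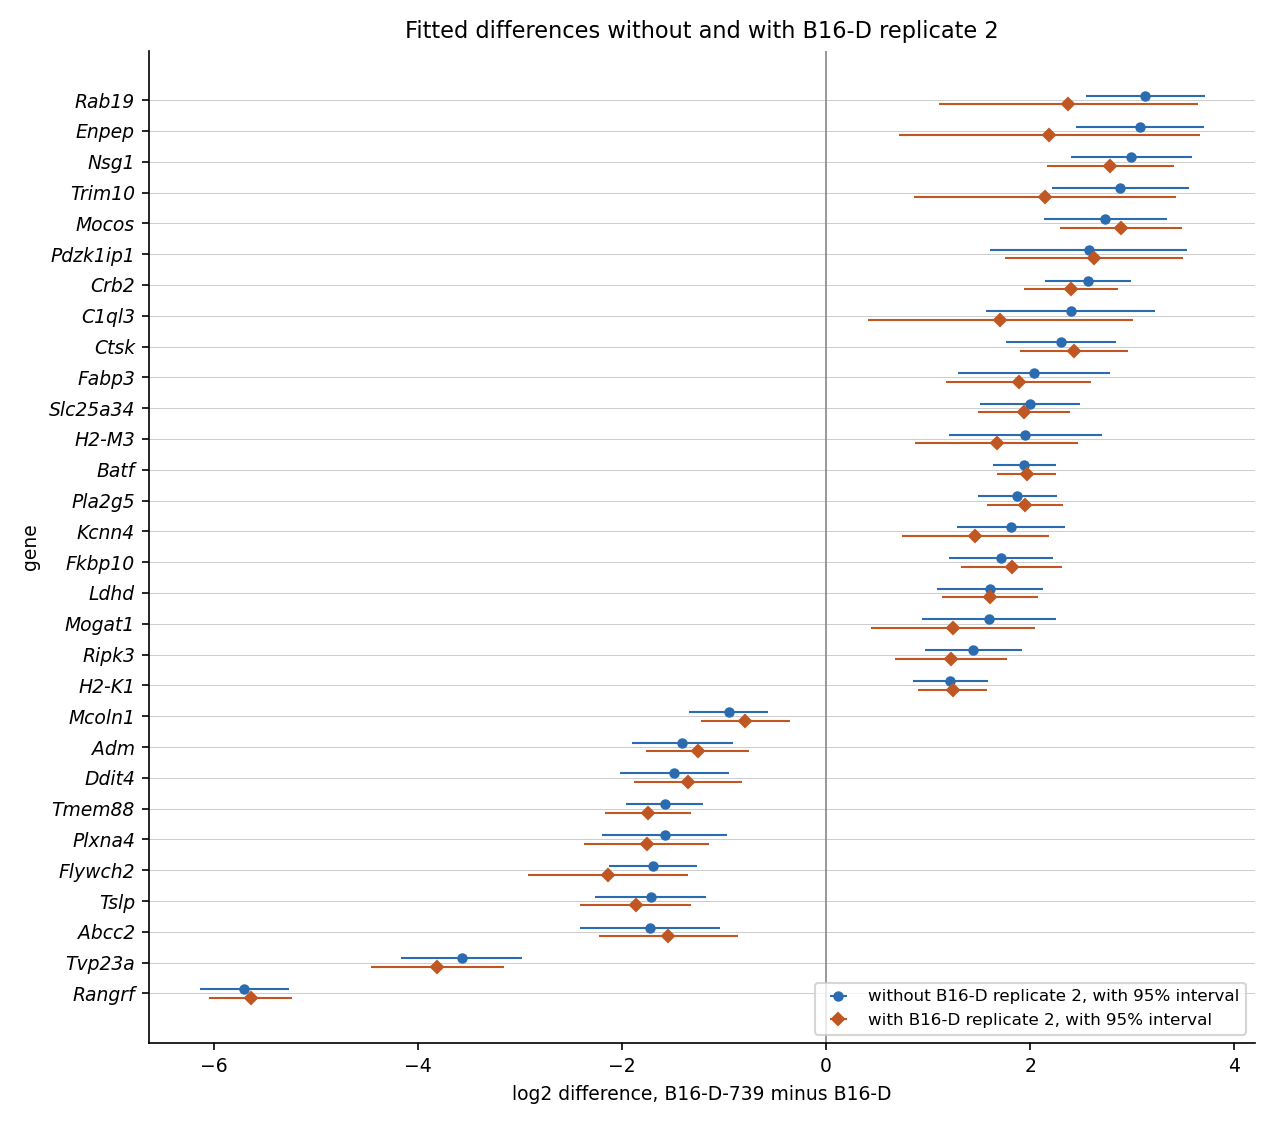
Fitted log2 difference of B16-D-739 minus B16-D for the 30 named genes with the 95% interval, without (circles) and with (diamonds) B16-D replicate 2. The direction is the same in both for all 30 genes, and the intervals of Rab19, Enpep, Trim10 and C1ql3 widen with the array.

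Most of the expression programme was bounded. Over 21 gene lists together, 617 of 783 tested genes (78.8%) had an interval within 1 log2 unit, and 8 passed, 5 higher and 3 lower, beside 0.325% of all genes. In 13 lists no gene passed, which at 0.325% over all genes says little about lists of this size. All 60 tested genes of the cell cycle and DNA replication were bounded, with differences from -0.40 (Mdm2) to 0.28 (Cenpf) and a median of 0.06. Of 33 genes of pigment cell identity, 26 were bounded and none passed. Mitf had a difference of -0.08 with an interval from -0.46 to 0.30, and Sox10 one of 0.15 with an interval from -0.08 to 0.38. Pmel, Mlana, Tyrp1 and Dct, which build or pigment the melanosome, differed by -0.01, -0.03, 0.03 and 0.03. The widest difference of the list, -1.29 for the melanocyte channel Trpm1, did not pass.

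The bounded share varied between lists, beside 63.4% of all genes, and so did the level. The median level in B16-D was -0.51 in the extracellular matrix list and -0.53 in the neural crest, stem-like and invasive list. It was 4.05 in the cell cycle list and 5.93 in the respiratory chain list. The part of the level in these shares was not tested. In the extracellular matrix list 25 of 50 genes were bounded, and in the list of the neural crest, stem-like and invasive state 16 of 29. None of the 29 passed, beside 0.325% of all genes. Of 36 tumour dormancy regulators 23 were bounded, of 44 integrins, cadherins and adhesion receptors 34, of 51 actin cytoskeleton genes 44, of 51 glutathione transferases and antioxidant genes 41, of 26 imprinted genes 17 and of 10 S100 genes 6, and none of these passed. With B16-D replicate 2 included, 1 of the glutathione transferases and antioxidant genes passed, higher in B16-D-739. A further list held genes with mutations in the melanoma lines, which came from exome sequencing and not from arrays. Of 52 tested, 48 were bounded and none passed. The quinone reductase Nqo1 had the widest difference of the antioxidant list. Its difference was -2.70 without passing.

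**Figure D3:**
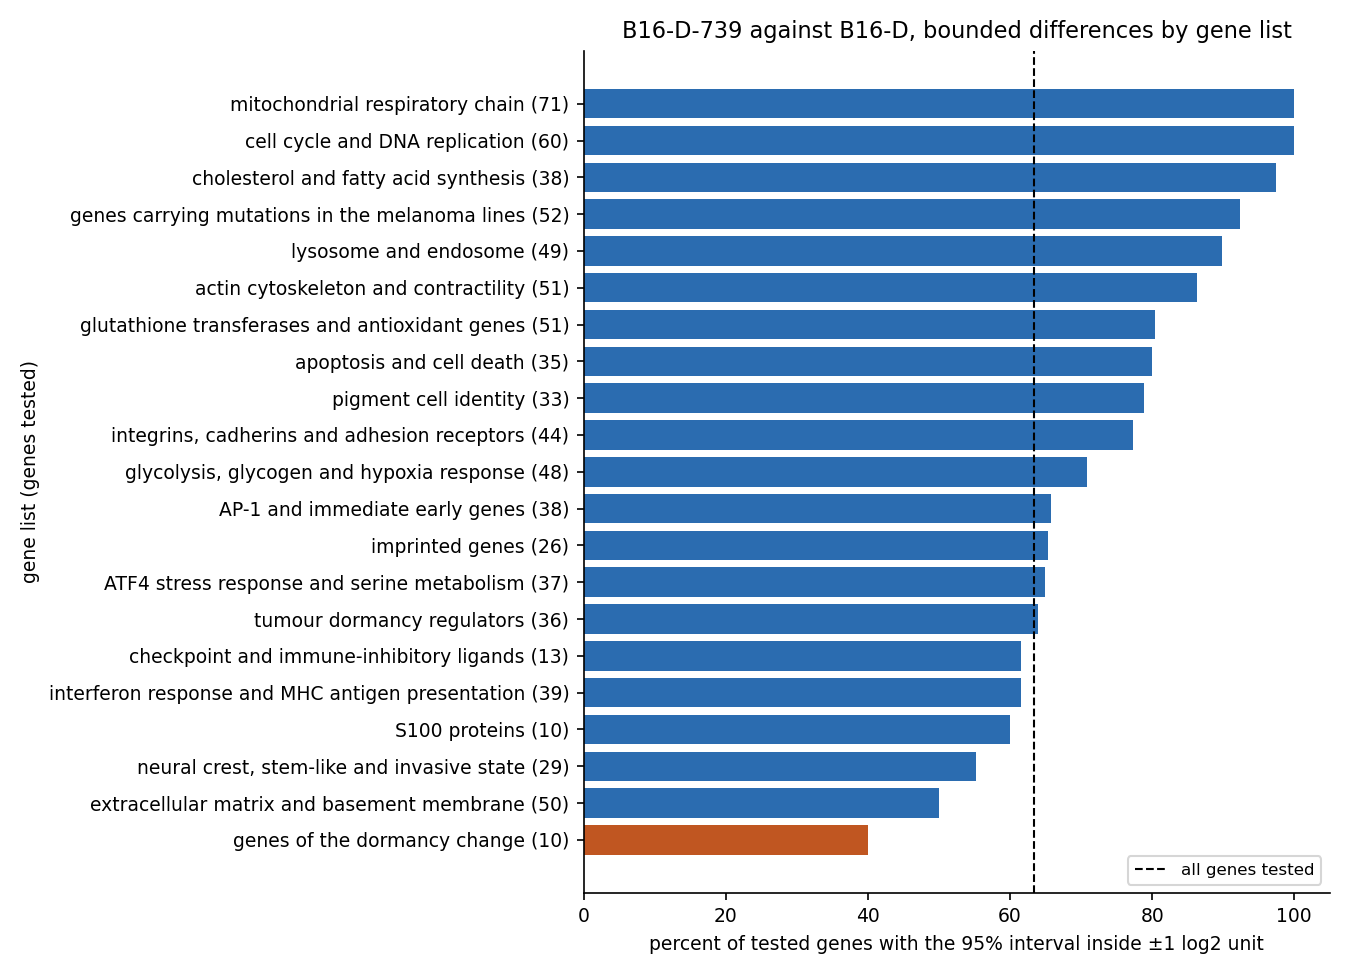
Percent of the tested genes of each list whose 95% interval of the difference of B16-D-739 minus B16-D lay within 1 log2 unit of 0, with the number tested in brackets. The dashed line is the 63.4% of all genes tested, and the bars run from 40.0% for the dormancy genes (orange) to 100% for the cell cycle and the respiratory chain.

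The genes of the dormancy change were taken from an earlier analysis of these same arrays as genes that differ between B16-D and B16-M, so their difference between B16-D and B16-M is a description. The question here is their level in B16-D-739. Myl9, a light chain of myosin, had a level of -5.16 ± 0.40 in B16-M, 0.18 ± 0.05 in B16-D and 1.23 ± 0.25 in B16-D-739 (SD, n = 3 each). Col4a1, a chain of basement membrane collagen, had -6.50 ± 0.09 in B16-M, -1.63 ± 0.17 in B16-D and -1.79 ± 0.24 in B16-D-739. Ctf1, the cytokine cardiotrophin, had -7.00 ± 0.10 in B16-M, -1.42 ± 0.16 in B16-D and -1.20 ± 0.23 in B16-D-739. The B16-D-739 arrays lay above the B16-D arrays for Myl9, Hapln1, Emilin1, Olfml1, Pnma2 and Fkbp10, while 7.59% of all genes did not overlap. They overlapped with them for Col4a1, Ctf1, Gsta4 and Nrk. Myl9 did not pass (limma, adjusted p = 0.382). Fkbp10 was the 1 gene of the 10 that passed, beside 0.325% of all genes. It was higher in B16-D-739 than in B16-D and, with B16-M at -4.12, further from B16-M. Intervals were bounded for 4 of the 10, and the median difference was 0.56 beside 0.01 over all genes. Emilin1, a glycoprotein of elastic fibres, had a difference of 0.82 with an interval from 0.46 to 1.18 (adjusted p = 0.0688). It passed under 3 of 15 alternatives and in 1 of the 16 fits that left out an array. Nrk, a kinase low in B16-D, had -1.36 ± 0.26 in B16-M, -6.51 ± 0.12 in B16-D and -5.93 ± 0.83 in B16-D-739, with an interval of its difference from -0.70 to 1.88. Its arrays of the dormant lines overlapped.

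**Figure D4:**
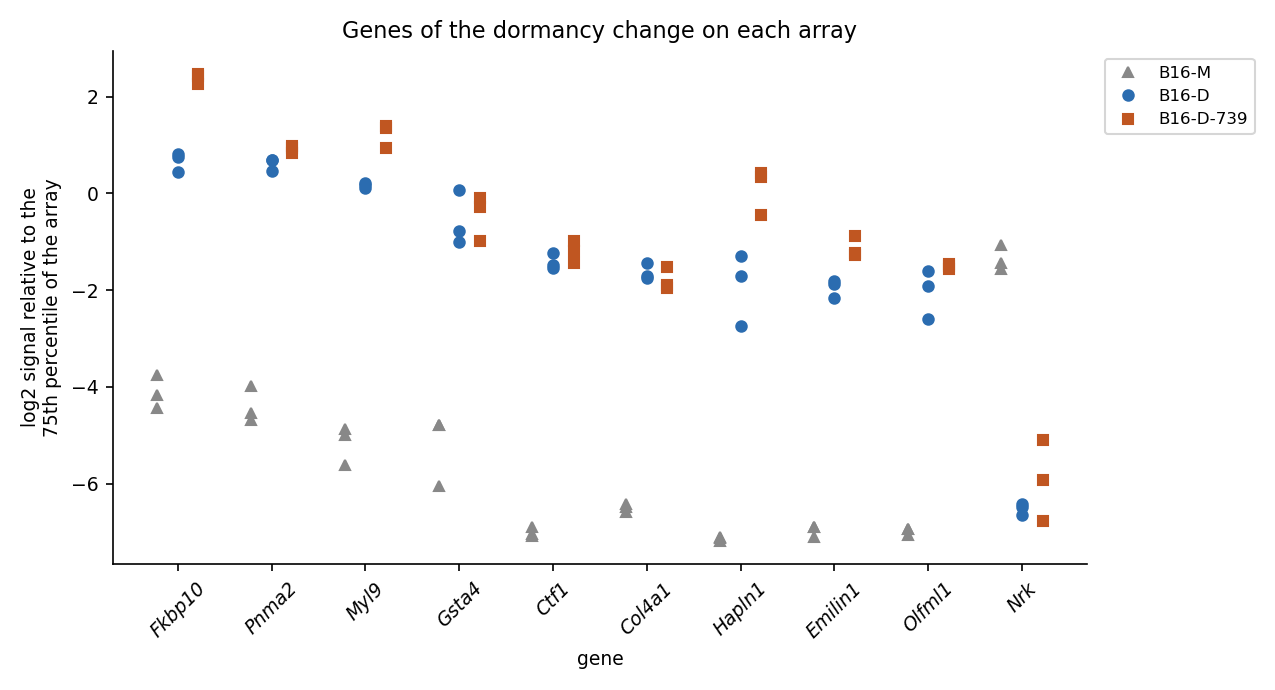
Level of 10 genes of the dormancy change on each array of B16-M (triangles), B16-D without replicate 2 (circles) and B16-D-739 (squares), as log2 signal relative to the 75th percentile of the array. For 9 genes both dormant lines lie above all B16-M arrays, and for Nrk they lie below.

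Defining markers were measured for the label of the cells. All 9 melanoma markers were above background on every array of both lines, and their summed level was 10.54 to 10.78 in B16-D and 10.57 to 10.72 in B16-D-739, as log2 of the sum. Of 11 neuronal markers 9 were above background on no array, among them Rbfox3, Stmn2 and Syt1, and Snap25 and Syp were above on all 6. Of 8 endothelial markers 7 were above on no array. Of 12 markers of microglia or macrophages 6 were above on no array, among them Ptprc, Adgre1 and Aif1, and Cd68, Csf1r and Itgam were above on all 6. All 6 arrays were also above background for 3 of 7 astrocyte markers (Aldh1l1, Aldoc and Gfap), 3 of 9 fibroblast or pericyte markers (Acta2, Col1a2 and Pdgfrb) and 3 of 10 lymphocyte markers (Cd3d, Cd3e and Cd4). The summed levels of these microglial markers were 2.47 to 3.23 in B16-D and 2.55 to 3.18 in B16-D-739. The ranges of the summed level overlapped between the lines for all 10 marker lists, and no marker passed. The part of other cells in these signals was not tested. Mbp, a protein of myelin, had the widest difference of them at -1.57 (adjusted p = 0.213). It passed under 3 alternatives, the replicate block without and with B16-D replicate 2 and the array weights with that array (adjusted p = 0.0116, 0.0098 and 0.0255).

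Whether B16-D-739 was the closest of the numbered lines to B16-D was measured by counts and by distance. Against the same B16-D arrays, 115 genes passed for B16-D-733 (0.473%; 99 higher, 16 lower) and 1966 for B16-D-735 (8.09%; 987 higher, 979 lower). These comparisons share the B16-D arrays with the one described here. The counts rest on 4 arrays of B16-D-733 and 3 of B16-D-739, so they are not fully alike. Without B16-D-733 replicate 0, 89 genes passed for B16-D-733 and 97 for B16-D-739, while leaving out any other array kept the order. The bounded share was 66.9% for B16-D-733 and 63.4% for B16-D-739. The distance of an array was the root mean square of its log2 differences from the B16-D mean over 24275 genes. It was 0.636, 0.577 and 0.476 for B16-D-739 (mean 0.563 ± 0.081, SD, n = 3), 0.470 to 0.579 for B16-D-733 (0.545 ± 0.050, n = 4) and 0.672 to 0.772 for B16-D-735 (0.722 ± 0.050, n = 3). B16-D-739 did not differ from B16-D-733 beyond the spread of the arrays (difference 0.018, exact permutation test, two-sided p = 0.8, adjusted over 2 comparisons 0.8). It lay below B16-D-735 on all arrays (difference -0.159, exact permutation p = 0.1, the smallest that 3 against 3 arrays can give, adjusted 0.2). Single B16-D arrays lay 0.632 to 0.810 from the mean of the other B16-D arrays, a mean over fewer arrays. Fits of one line against the other on the same arrays found 60 genes (0.247%) between B16-D-739 and B16-D-733 and 1671 (6.87%) between B16-D-739 and B16-D-735. Of the 79 genes, 21 also differed from B16-D-733, 47 from B16-D-735 and 14 from both.

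**Figure D5:**
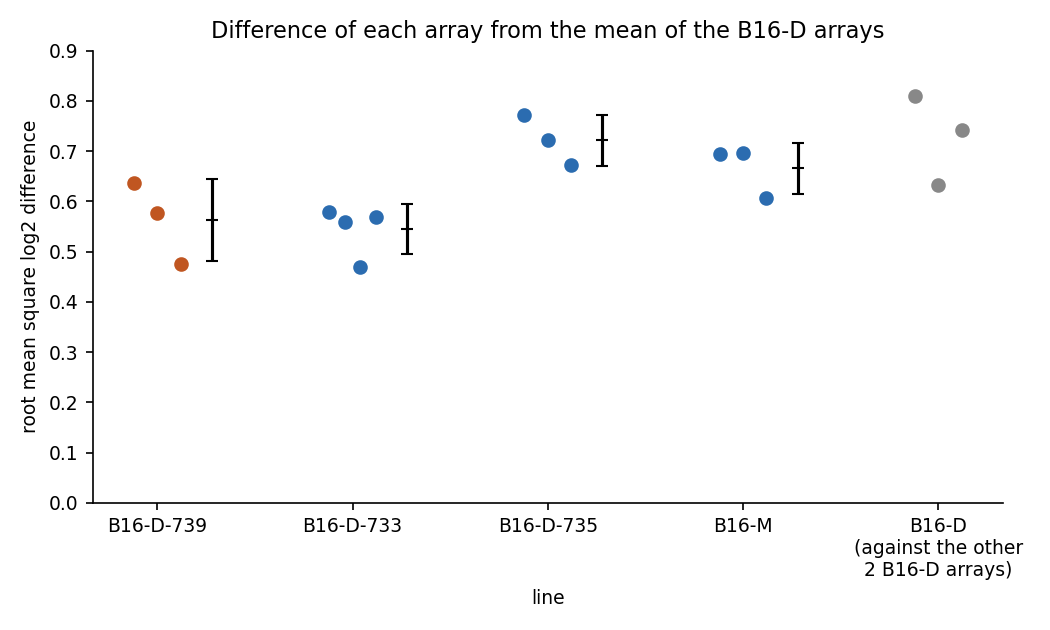
Root mean square log2 difference of each array from the mean of B16-D replicates 0, 1 and 3, by line, with the mean and SD beside the points. B16-D-739 and B16-D-733 overlap, B16-D-735 lies between 0.672 and 0.772, and the grey points give each B16-D array against the other 2.

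The arrays lay on 3 slides, called a, b and c here. Slides a and c held arrays of both lines in the main comparison, and on slide b stood a B16-D-739 array without a B16-D array. Within slide a and within slide c, all 30 named genes differed in the direction of the pooled fit. This follows from arrays that do not overlap, so it is no separate check of the slides. With the slide as a fixed block 75 genes passed, 58 higher and 17 lower, of which 64 were among the 79, and the calls of Pdzk1ip1, H2-M3, Abcc2, Mogat1 and Ddit4 ended. With the slide as a random block, arrays of a slide correlated at 0.33. In that fit 112 genes passed, 86 higher and 26 lower, and all 79 were among them. The titles of B16-D replicates 1, 2 and 3 carry a date mark, while those of B16-D replicate 0 and of all B16-D-739 arrays carry none. With this mark as a term 102 genes passed, 52 of them among the 79, and the calls of Tslp, C1ql3, Fabp3, H2-M3, Mogat1, Plxna4 and Mcoln1 ended.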

How the data were processed

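The authors labelled total RNA with Cy3 and deposited Agilent Feature Extraction 10.7.3.1 output, in which the intensity of each spot is background-subtracted and detrended within its array, with no scaling between arrays. The deposited series table holds the same intensities on all 62976 spots. The 7 leukemia arrays were not used. Here, log2 intensity of the 59305 measuring spots, without outlier spots, was set relative to the 75th percentile of the array, spots of a probe were averaged, and each gene took its brightest probe. The 32994 probes with a symbol gave 22911 symbols. Genes well above background on 3 or more of the 16 melanoma arrays were tested with limma 3.58.1 in R 4.3.3, all 5 melanoma lines in 1 fit (11 residual degrees of freedom), two-sided, with Benjamini-Hochberg adjustment over all genes and a threshold of 0.05. Where a line was above background on no array, the fold is a lower bound, from the lowest signal well above background on those arrays. The genes named are the 25 largest changes past the threshold (arrays apart, above background on every array of at least 1 line, clones and predicted genes passed over), every list member past it, the 4 brightest members of each list, the dormancy genes and the markers. Members and lists were chosen with earlier results of these data known, and the dormancy genes are no independent support. In simulated data for B16-D-739 minus B16-D over 24316 genes, 82% of 50 genes changed by 2 log2 units were recovered, and 44% of 50 changed by 1. The number of arrays limits the precision. For normexp, median spot intensities replaced the planned mean intensities. Other settings are given at the end.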

Additional observations from a re-analysis of the deposited data

Results flagged for a closer look

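In the groups of 4 arrays, B16-D and B16-D-733, 80 values were checked (39 genes and the share of spots above background). Of these, 8 had 1 array far from the other 3. The rule flags about 1 in 20 values where nothing was selected. The genes were chosen by their differences on these same arrays, so the 8 cannot be set beside that rate. In B16-D these were Abcc2 on replicate 0 (-0.041), Tmem88 on replicate 2 (-1.30), Nrk on replicate 2 (-4.65). In B16-D-733 they were Ctsk on replicate 1 (-4.50), Plxna4 on replicate 2 (-1.58), Adm on replicate 1 (-1.47), Ripk3 on replicate 0 (-1.49), Nrk on replicate 1 (-3.07). Values are log2 levels relative to the 75th percentile of the array.

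For some of the 30 named genes the difference from B16-D was not the same in the sister lines, by a test of the lines against each other (limma, adjusted p under 0.05). Against B16-D-733, 9 genes differed, with log2 differences of B16-D-739 minus B16-D-733 of Rangrf (-5.26), Tvp23a (-5.07), Mocos (1.81), Crb2 (-1.27), Ctsk (3.16), Tslp (-1.95), Flywch2 (-2.25), Plxna4 (-2.06), Tmem88 (-2.03). Against B16-D-735, 17 genes differed, with log2 differences of B16-D-739 minus B16-D-735 of Rangrf (-5.79), Tvp23a (-5.62), Rab19 (1.28), Nsg1 (6.19), Mocos (1.51), Crb2 (-0.70), Ctsk (1.58), Slc25a34 (-0.95), Pla2g5 (-1.51), Abcc2 (-3.62), Fkbp10 (4.14), Flywch2 (-3.48), Ldhd (-1.36), Plxna4 (-3.18), H2-K1 (1.76), Ddit4 (-1.09), Ripk3 (1.87).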

How the results depend on the processing

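The count of 79 genes became 41 with scaling to the median of each array (27 higher, 14 lower, beside 60 and 19), 41 with genes above background on every array, 1 in a fit of the lines compared alone (22207 genes, 4 residual degrees of freedom), 148 with array weights and B16-D replicate 2 included, and 1236 at an unadjusted p under 0.05. Leaving out each of the 16 arrays gave 41 to 97 genes. It was 42 without B16-D-739 replicate 1 and 41 without B16-D-739 replicate 2. All calls shared with the 79 kept their direction under every alternative. For B16-D-733, the count of 115 became 68 with median scaling, 73 with normexp background, 52 with genes above background on every array and 51 in a fit of the lines alone, and 86 to 135 on leaving out an array. For B16-D-735, the count of 1966 became 848 with median scaling, 1222 with no filter and 315 in a fit of the lines alone, and 1002 to 2183 on leaving out an array. The number of bounded genes, 15423, was 27884 with no filter (61.1% of those tested) and 7860 (32.3%) with a limit of 0.5 log2 units. It was 13721 to 15554 on leaving out an array. The bounded share, 63.4%, was 90.8% with normexp background and 79.9% with genes above background on every array. It was 77.2% with the slide as a fixed block, 73.5% with the slide as a random block and 55.8% with the date mark as a term.

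The mean distance of B16-D-739, 0.563, was 0.243 as a median absolute difference and 0.415 over genes above background on every array, and 0.556 to 0.684 on leaving out a B16-D array. Its difference from B16-D-733 was -0.0016 to 0.0443 on leaving out a B16-D array, and turned sign without replicate 3. The difference from B16-D-735 stayed between -0.168 and -0.120.

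The replicate numbers did not pair the lines. The residuals of same-numbered arrays of B16-D and B16-D-739 correlated at 0.16, -0.36 and -0.26, and with the replicate block 70 genes passed (54 of the 79), or 58 with B16-D replicate 2 included. The causes of these shifts were not tested. Normexp background correction lost the calls of Tvp23a, Tslp, Enpep, Trim10, C1ql3, H2-M3, Abcc2 and Flywch2. Median scaling lost those of Pdzk1ip1, C1ql3, Fabp3, Kcnn4, Abcc2, Fkbp10, Ldhd, Mogat1, Adm, Ddit4 and Mcoln1. Rangrf, Batf, Crb2, Nsg1, Mocos, Ctsk, Slc25a34, Tmem88 and H2-K1 passed under every alternative in which they were tested except the fit of the lines alone.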
